A study of Mus musculus with 25 samples.

Results

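The expression of 10 genes of bile acid synthesis and transport was described in mouse liver and liver tumors. The genes were chosen by symbol, as the enzymes, transporters and receptors that make up the core of the hepatic bile acid pathway, and each symbol was matched to the Ensembl gene identifier in the deposited files. All 10 were found among the 48795 genes of the files. They were the synthetic enzymes Cyp7a1, Cyp8b1, Cyp27a1 and Cyp7b1, the conjugating enzyme Baat, the nuclear receptors Nr1h4 and Nr0b2, and the transporters Abcb11, Slc10a1 and Slco1b2.

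Bulk RNA sequencing was performed on 25 libraries from male C57BL/6J mice, 1 library for each tissue sample. Some mice received diethylnitrosamine (DEN), a hepatic carcinogen, as an intraperitoneal dose of 25 mg/kg at 2 weeks of age, and the untreated mice are called nonDEN. From weaning onwards the mice ate either a Western diet (WD) or a control diet (CD), which differ in their base formula as well as in fat and sugar, and the tissues were collected when they were 36 weeks old or older. The groups were the liver of untreated mice on CD (nonDEN L-CD, 3 libraries), the liver of untreated mice on WD (nonDEN L-WD, 4), the liver of DEN-treated mice on CD (DEN L-CD, 4), the tissue beside the tumors of DEN-treated mice on WD (DEN PT-WD, 8) and those tumors themselves (DEN T-WD, 6). The paper reports that some DEN-treated mice on CD also had tumors, too small to dissect reliably from the liver. Separate samples of peritumoral tissue and of tumors therefore exist on WD only. The labels do not say which tumor and which peritumoral sample share a mouse, nor whether the samples of a group came from separate mice, so the p-values below measure the spread between these samples.

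Bile acids are made from cholesterol in hepatocytes. In the classic route Cyp7a1 performs the first and rate-limiting step and Cyp8b1 the 12α-hydroxylation that yields cholic acid, whereas the alternative route starts with Cyp27a1 and continues through Cyp7b1. Baat joins the acids to taurine or glycine, Abcb11 (the bile salt export pump) secretes them into the canaliculus, and Slc10a1 (NTCP) and Slco1b2 (an organic anion transporter) take them back up from portal blood. Bile acids activate the receptor Nr1h4 (FXR), which induces Nr0b2 (SHP) and Abcb11, and through Nr0b2 and intestinal Fgf15 lowers Cyp7a1 transcription.

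In the GRCm38 annotation all 10 genes are protein coding. Cyp7a1 lies at chr4:6265612-6275633 on the minus strand with 6 exons, Cyp8b1 at chr9:121914356-121916305 (minus strand) as a single exon, Cyp27a1 at chr1:74713574-74737892 (plus strand) and Cyp7b1 at chr3:18071950-18243338 (minus strand). Baat is at chr4:49489422-49506557 (minus strand), Nr1h4 at chr10:89454234-89533585 (minus strand) and Nr0b2 at chr4:133553376-133556536 (plus strand). Abcb11 is at chr2:69238282-69342616 (minus strand), Slc10a1 at chr12:80953183-80968705 (minus strand) and Slco1b2 at chr6:141629518-141686646 (plus strand). Abcb11 shares 136 exonic bases with the antisense gene Gm13613. Whether strand was used in counting is not given in the sources used here, so reads of that stretch cannot be told apart.

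FXR binds DNA at an inverted repeat of the hexamer AGGTCA with 1 base between its copies, AGGTCANTGACCT, which reads the same on both strands. RefSeq promoter windows (GRCm38.p6, 250 bases before the transcription start) were matched for 7 of the 10 genes, and the motif with at most 1 mismatch was found in those of Abcb11 and Slco1b2. Among the 32851 windows of the RefSeq table, the motif was present in 26 (0.0791%), 2 of them without a mismatch. The hexamer alone, on either strand, was in 14% of windows. Both promoters are printed 5′ to 3′ on the strand of the gene because these were the members whose windows held the motif, and the capitals mark it. The Abcb11 window is chr2:69342617-69342866 on the minus strand, with the motif at −63 to −51 from the start. The Slco1b2 window is chr6:141629268-141629517 on the plus strand, with the motif at −88 to −76.
Abcb11: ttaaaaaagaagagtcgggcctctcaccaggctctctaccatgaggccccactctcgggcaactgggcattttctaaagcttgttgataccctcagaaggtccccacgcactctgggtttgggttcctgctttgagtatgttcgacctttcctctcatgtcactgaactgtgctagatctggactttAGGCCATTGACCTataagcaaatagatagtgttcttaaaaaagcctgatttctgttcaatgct
Slco1b2: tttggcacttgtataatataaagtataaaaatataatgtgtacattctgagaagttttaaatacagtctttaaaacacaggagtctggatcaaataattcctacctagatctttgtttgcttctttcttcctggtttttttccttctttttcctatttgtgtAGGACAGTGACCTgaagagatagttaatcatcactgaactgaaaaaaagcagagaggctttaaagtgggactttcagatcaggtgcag

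These letters describe the sequence and not binding, which was not measured. The 2 genes did not follow one pattern in the tissue. As given below, Slco1b2 was above its nonDEN L-CD level in nonDEN L-WD and in DEN L-CD, Abcb11 did not pass the test in either comparison, and both were lower in the tumors.

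Levels of a gene in a library are given as TMM-normalized CPM, that is, counts scaled to a common library size, which are compared between libraries and not between genes. Differences are log2 fold changes from edgeR's quasi-likelihood test, fitted once over the 5 groups, and "passed" means a Benjamini-Hochberg adjusted p of at most 0.05 over the 15625 genes tested. Each library held between 21530083 and 38074411 expected counts. All 10 members were tested. Hepatocyte genes were abundant in every library, although the tumor library 5 had 23010 CPM of albumin (Alb) against 91840 to 121200 in the other tumors and is shown apart where it matters. The summed CPM of 8 acute phase genes was 20240 and 22070 in nonDEN L-CD libraries 2 and 3 against 4338 to 10830 in the 22 libraries of the other groups, and nonDEN L-CD library 1 had 8761. In 10 libraries, pancreatic acinar genes averaged over 50 TPM, the length-corrected share of transcripts. In bulk tissue, fewer cells of a type and less RNA per cell cannot be told apart.

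Measured per transcript length, Slco1b2 was the most abundant member in all 5 groups, with mean levels of 469 TPM in nonDEN L-CD, its lowest liver group, and 873 TPM in nonDEN L-WD. Nr0b2, with 14.9 to 23.4 TPM, was the least abundant in 4 of the groups. The exception was nonDEN L-CD, where Cyp7a1 was lowest at a mean of 6.77 TPM, whereas in the other groups it averaged 54.4 to 156 TPM. Within groups, the SD of the log2 CPM was 0.54 for Cyp7a1, 0.67 for Cyp7b1 and 0.52 for Nr0b2, and 0.12 for Baat, against a median of 0.23 over all genes tested. Cyp7a1, Cyp7b1 and Nr0b2 therefore varied more between libraries of a group than most genes, at the 84.1, 90 and 82.7 percentiles, and Baat less, at the 17.2 percentile.

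**Figure D1:**
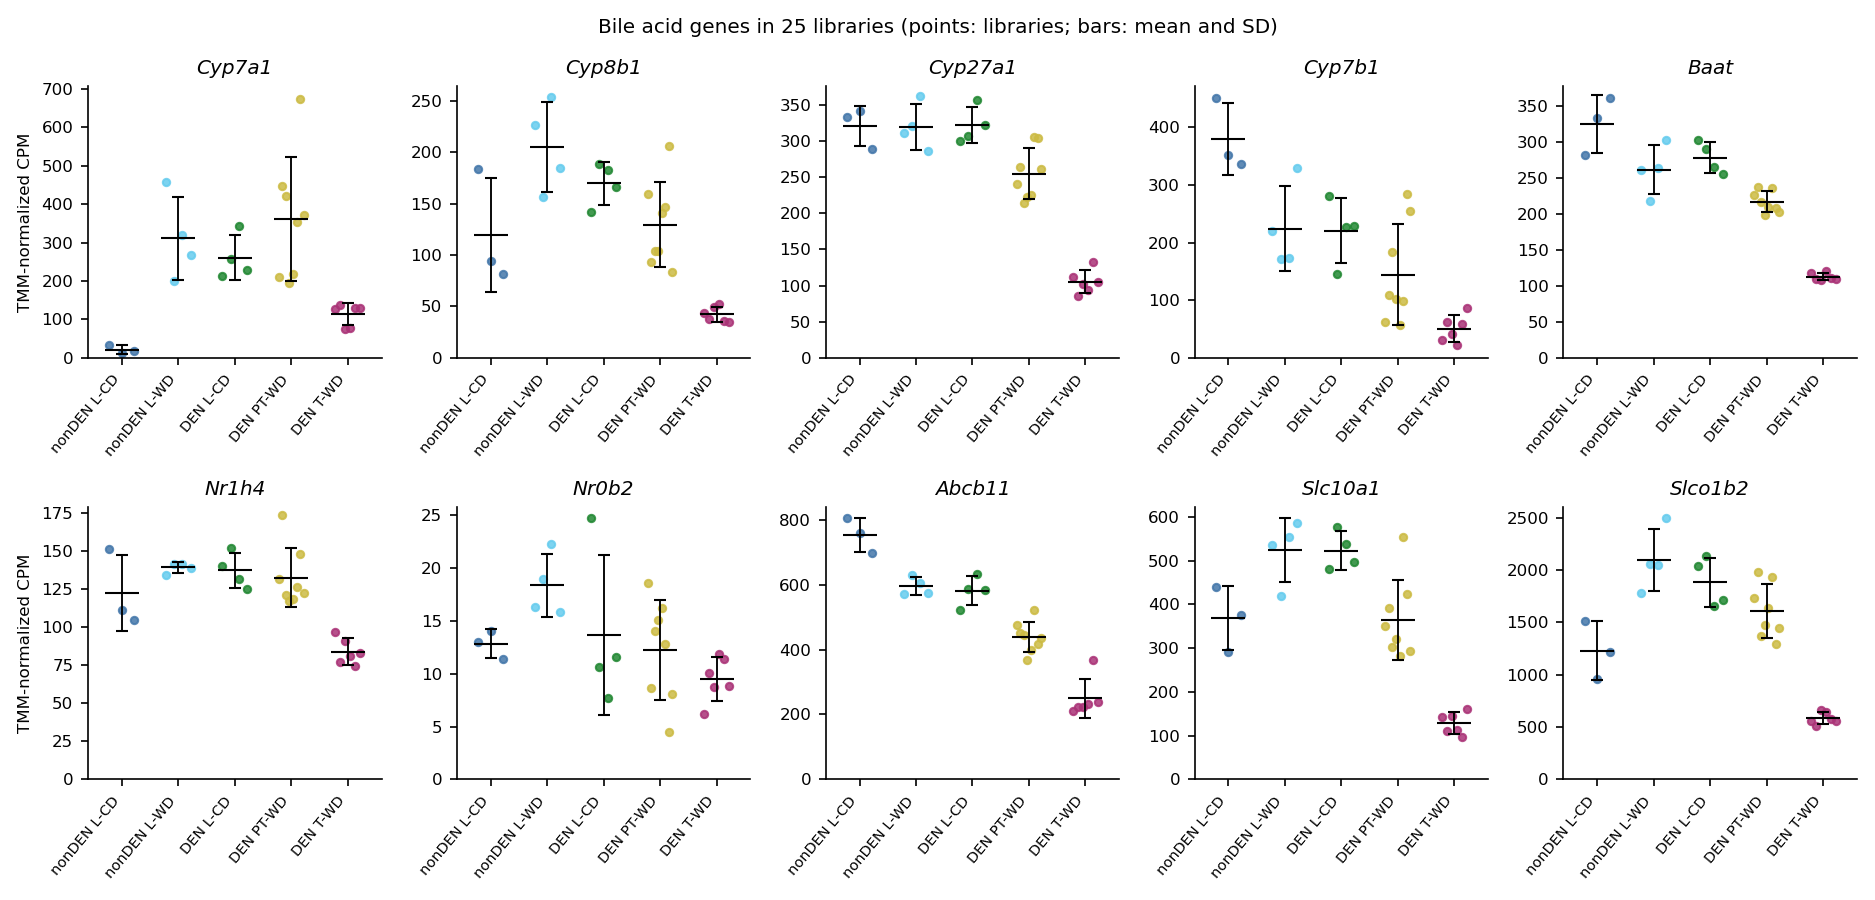
TMM-normalized CPM (linear axes from 0) of each of the 10 genes in every library, by group. Points are libraries, and bars are the group mean and SD. Cyp7a1 is separated from all other groups in nonDEN L-CD (11.3 to 34.4 CPM), and the tumors are lowest for most of the other genes.

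The effect of WD in untreated mice was read from nonDEN L-WD against nonDEN L-CD. Cyp7a1, Cyp8b1 and Slco1b2 were higher on WD and Baat was lower. These were 4 of 10 members, where 23.2% of all genes tested passed. The median log2 fold change of the members was 0.35, against 0.01 over all genes tested. One member, Cyp7a1, also changed by at least 1 on the log2 scale, as did 5.28% of genes.

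Cyp7a1, the rate-limiting enzyme of the classic route, was at 34.4, 11.3 and 18.2 CPM in the 3 nonDEN L-CD libraries. In nonDEN L-WD it was at 457, 201, 320 and 269 CPM. Every WD library exceeded every CD library. The difference was 3.87 on the log2 scale (SE 0.46, edgeR quasi-likelihood adjusted p = 6.65e-06), or 14.6-fold. Because acute phase genes were high in nonDEN L-CD libraries 2 and 3, the fit was repeated without them, which left 1 CD library, assumed to vary like the other groups. Cyp7a1 was then 9.08-fold higher on WD (log2 fold change 3.18, edgeR quasi-likelihood adjusted p = 0.0137). Without the 10 libraries with pancreatic RNA, which left only nonDEN L-CD library 2 as control, the log2 fold change was 4.52. DEN L-CD library 1 had the highest acute phase sum outside nonDEN L-CD, 10830 CPM, and 214 CPM of Cyp7a1.

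**Figure D2:**
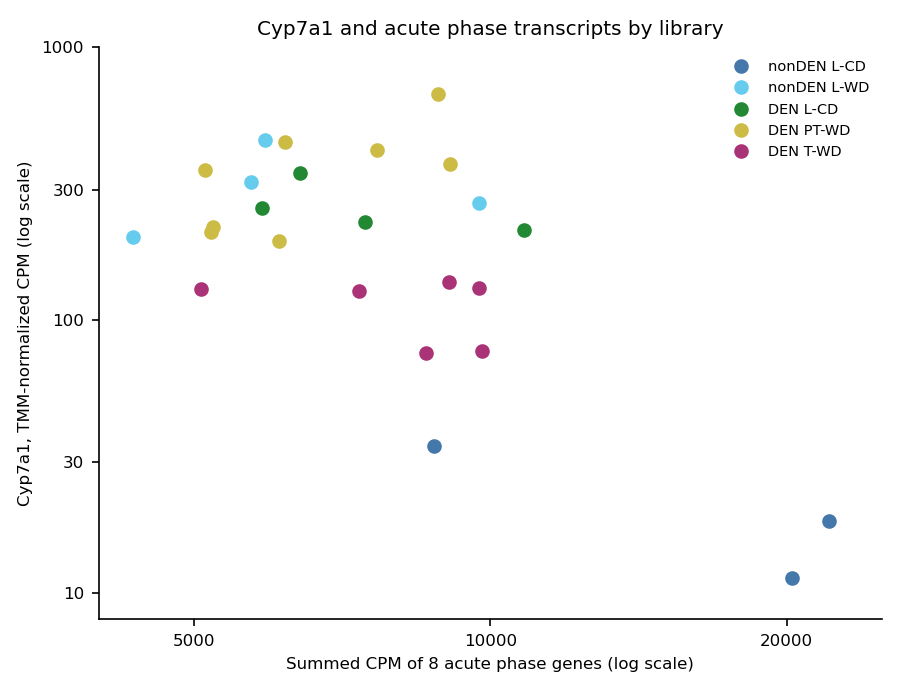
Cyp7a1 against the summed level of 8 acute phase genes, both in CPM on log axes, 1 point for each of the 25 libraries. nonDEN L-CD library 1 (8761 summed CPM, 34.4 CPM of Cyp7a1) lies within the acute phase range of the other groups and below all of them in Cyp7a1.

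Cyp8b1 was at 183, 94.5 and 81.3 CPM in nonDEN L-CD and at 226, 156, 253 and 184 CPM in nonDEN L-WD. The ranges overlapped. Its log2 fold change of 0.78 (SE 0.28) had an edgeR quasi-likelihood adjusted p of 0.0481. The call was lost when nonDEN L-CD library 2 or 3 or nonDEN L-WD library 1, 3 or 4 was left out. The log2 fold changes were then 0.56 to 0.82 and the adjusted p 0.05004 to 0.225. It was lost as well without the low-count filter (adjusted p = 0.0613) and when only these 2 groups were fitted (adjusted p = 0.0923). Without both high acute phase libraries the log2 fold change was 0.17, and without the libraries with pancreatic RNA it was 1.11. The call was lost in both of these settings, which leave 1 control library.

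The alternative route showed another picture. Cyp27a1 averaged 321 ± 28.3 CPM (SD, n = 3) in nonDEN L-CD and 320 ± 31.7 (n = 4) in nonDEN L-WD. Cyp7b1, the oxysterol 7α-hydroxylase, was at 450, 353 and 336 CPM in nonDEN L-CD and at 220, 172, 174 and 330 CPM in nonDEN L-WD. All WD libraries were below all CD libraries, yet with the wide spread between libraries the log2 fold change of −0.76 (SE 0.47) did not pass (edgeR quasi-likelihood adjusted p = 0.26).

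Baat was at 282, 333 and 360 CPM in nonDEN L-CD and at 262, 218, 264 and 302 CPM in nonDEN L-WD, with 1 WD library inside the CD range. It was lower on WD by a log2 fold change of −0.31 (SE 0.10, edgeR quasi-likelihood adjusted p = 0.0248). That call was lost without nonDEN L-CD library 2 or 3 or nonDEN L-WD library 1 or 2 (log2 fold change −0.31 to −0.23, adjusted p 0.0504 to 0.154). Without nonDEN L-CD libraries 2 and 3 together the log2 fold change was −0.10 (adjusted p = 0.783), and without the libraries with pancreatic RNA it was −0.46 (adjusted p = 0.0548).

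Of the transporters, Slco1b2 was at 1517, 957 and 1216 CPM in nonDEN L-CD and at 1785, 2062, 2050 and 2498 CPM in nonDEN L-WD. The groups did not overlap, and Slco1b2 was 1.71-fold higher on WD (log2 fold change 0.77, SE 0.16, edgeR quasi-likelihood adjusted p = 0.00202). Without nonDEN L-CD libraries 2 and 3 the log2 fold change was 0.48 and did not pass (adjusted p = 0.295). Slc10a1, the sodium-dependent uptake transporter, was at 439, 292 and 375 CPM on CD and at 537, 419, 553 and 586 CPM on WD, an overlapping difference of 0.51 on the log2 scale (adjusted p = 0.0785). The export pump Abcb11 was at 804, 759 and 697 CPM on CD and at 570, 630, 607 and 575 CPM on WD. Its WD libraries were all below its CD libraries, but the log2 fold change of −0.34 (SE 0.14) did not pass (edgeR quasi-likelihood adjusted p = 0.0919).

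Neither receptor passed. Nr1h4 averaged 122 ± 25.2 CPM (SD, n = 3) on CD and 139 ± 3.3 (n = 4) on WD (log2 fold change 0.19, edgeR quasi-likelihood adjusted p = 0.327). Nr0b2 was at 13, 14.1 and 11.4 CPM on CD and at 16.4, 18.9, 22.3 and 15.8 CPM on WD. All WD values lay above the CD values, with a log2 fold change of 0.52 (SE 0.37) that did not pass (adjusted p = 0.329). When only these 2 groups were fitted, the count was again 4 but for other genes, as Nr0b2 (adjusted p = 0.0296) and Abcb11 (adjusted p = 0.0345) passed and Cyp8b1 (adjusted p = 0.0923) and Baat (adjusted p = 0.13) did not.

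The effect of DEN on CD was read from DEN L-CD against nonDEN L-CD, which shares its controls with the diet comparison above. Cyp7a1 and Slco1b2 were higher in DEN L-CD, and no member was lower. These 2 of 10 members compare with 21.3% of all genes tested, and the median log2 fold change was 0.13 over the members and 0.02 over all genes. Requiring also a log2 fold change of at least 1 left Cyp7a1, and 4.7% of all genes. The DEN L-CD livers may hold small tumors. Of the tumor genes Gpc3 and Afp, 1 was higher in DEN L-CD (summed level 7.4 to 40.5 CPM against 1.86 to 1.99 CPM in nonDEN L-CD). The part of this shift in the members' results was not tested.

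In DEN L-CD, Cyp7a1 was at 214, 257, 344 and 228 CPM, all above the 11.3 to 34.4 CPM of nonDEN L-CD. It was 12.2-fold higher (log2 fold change 3.61, SE 0.45, edgeR quasi-likelihood adjusted p = 1.25e-05), and 7.61-fold higher without nonDEN L-CD libraries 2 and 3 (log2 fold change 2.93, adjusted p = 0.0185). Slco1b2 was at 2035, 2131, 1652 and 1710 CPM, again above all nonDEN L-CD libraries and 1.53-fold higher (log2 fold change 0.61, SE 0.16, adjusted p = 0.0101). The Slco1b2 call was lost without nonDEN L-CD library 2 (log2 fold change 0.46, adjusted p = 0.0963) and without libraries 2 and 3 together (0.32, adjusted p = 0.527).

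The other members did not pass in this comparison. Cyp8b1 was at 142, 189, 183 and 166 CPM in DEN L-CD, inside the span of the nonDEN L-CD and nonDEN L-WD libraries, with a log2 fold change of 0.50 (adjusted p = 0.205). Without nonDEN L-CD library 1 it passed (0.94, adjusted p = 0.022), as did Baat (−0.33, adjusted p = 0.0289). Cyp7b1 at 281, 145, 227 and 229 CPM was below every nonDEN L-CD library (log2 fold change −0.78, adjusted p = 0.251). Abcb11 at 523, 586, 632 and 584 CPM was likewise below all of them (−0.37, adjusted p = 0.067), and Slc10a1 at 480, 577, 538 and 496 CPM was above all of them (0.50, adjusted p = 0.0833). When only these 2 groups were fitted, Cyp7b1, Abcb11 and Slc10a1 passed (adjusted p = 0.0276, 0.0211 and 0.0341). Cyp27a1, Nr1h4 and Nr0b2 had log2 fold changes of 0.00, 0.17 and 0.09.

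DEN L-CD and nonDEN L-WD were then compared directly. None of the 10 members passed edgeR's quasi-likelihood test, 0 had an unadjusted p under 0.05 and 0 passed with DESeq2. In this comparison 0.717% of all genes tested passed. The fold changes of these 2 groups over nonDEN L-CD rest on the same 3 libraries.

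**Figure D3:**
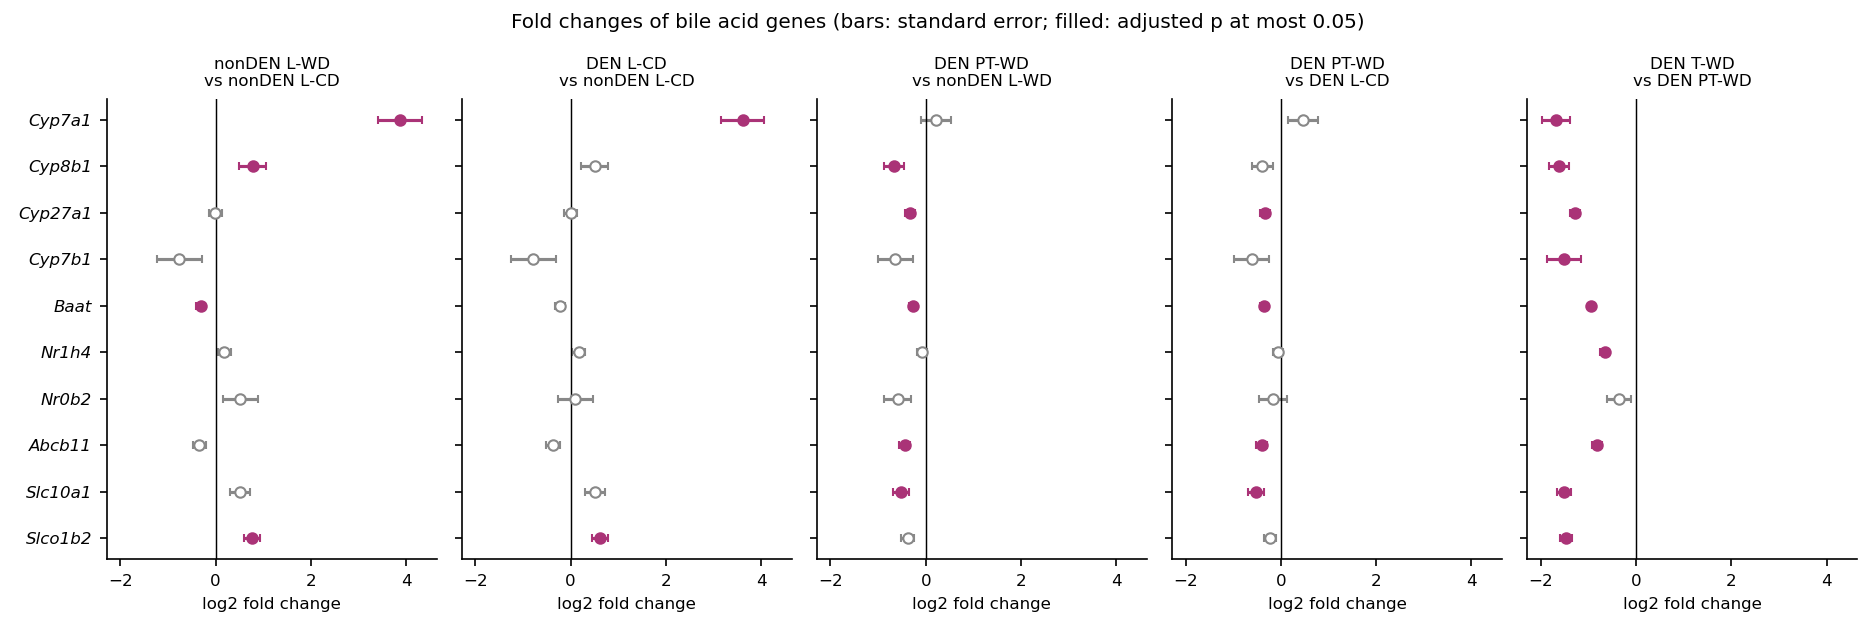
Log2 fold changes of the 10 genes with their standard errors in the 5 main comparisons. Filled points passed the test at an adjusted p of at most 0.05. Cyp7a1 stands at 3.87 and 3.61 in the comparisons with nonDEN L-CD, and 9 of the 10 genes passed, all lower, in tumor against peritumoral tissue.

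Peritumoral tissue was compared with nonDEN L-WD, where the diet is shared, and with DEN L-CD, where DEN treatment is shared. The presence of tumors cannot be told apart from DEN in the former. In the latter a difference in tumor burden cannot be told apart from the diet, since DEN L-CD may itself hold small tumors. Cyp8b1, Cyp27a1, Baat, Abcb11 and Slc10a1 were lower than in nonDEN L-WD, 5 of 10 members where 12.4% of all genes tested passed. Cyp27a1, Baat, Abcb11 and Slc10a1 were lower than in DEN L-CD, 4 of 10 where 10.6% of genes passed. The median log2 fold changes of the members were −0.41 and −0.35, against 0.00 and 0.02 over all genes tested. These comparisons share the 8 peritumoral libraries.

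Markers of other cells and states moved in the same comparisons. Against nonDEN L-WD both tumor genes, Gpc3 and Afp, were higher (summed level 8.78 to 169.5 CPM in peritumoral tissue and 1.81 to 3.84 CPM in nonDEN L-WD), as were 3 of 3 proliferation genes (7.78 to 36.7 against 5.54 to 13.1 CPM), 2 of 4 stellate cell and fibroblast genes (253 to 459 against 194 to 240 CPM), 1 of 5 macrophage genes, 1 of 3 endothelial genes, 1 of 3 leukocyte genes, 1 of 7 cholangiocyte genes and 1 of 8 acute phase genes. Of 5 pericentral hepatocyte genes 2 were lower, with sums of 6811 to 10890 CPM in peritumoral tissue and 11380 to 13880 CPM in nonDEN L-WD. Against DEN L-CD, 2 of 5 macrophage genes (173 to 356 against 161 to 258 CPM), 2 of 3 endothelial genes (133 to 176 against 119.5 to 134 CPM), 1 of 4 stellate cell and fibroblast genes and 1 of 7 cholangiocyte genes were higher. Of the 2 tumor genes 0 passed against DEN L-CD, where their sum was 7.4 to 40.5 CPM. Of 7 hepatocyte markers 0 passed in either comparison, with median log2 fold changes of −0.28 and −0.52. Their summed level was 50350 to 86280 CPM in peritumoral tissue, 69750 to 115200 CPM in nonDEN L-WD and 91620 to 107300 CPM in DEN L-CD. The part of these shifts in the members' results was not tested.

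Abcb11 ranged from 368 to 522 CPM over the 8 peritumoral libraries (median 441), below all libraries of nonDEN L-WD and DEN L-CD. It was lower by −0.44 on the log2 scale (SE 0.11, edgeR quasi-likelihood adjusted p = 0.0165) than in nonDEN L-WD and by −0.40 (SE 0.11, adjusted p = 0.0266) than in DEN L-CD. The latter call was lost when DEN L-CD library 2, 3 or 4 was left out (adjusted p 0.0587 to 0.0939). Both calls were lost without the libraries with pancreatic RNA, with log2 fold changes of −0.59 (adjusted p = 0.117) and −0.45 (adjusted p = 0.108). Baat ranged from 198 to 238 CPM (median 213), below all DEN L-CD libraries and overlapping nonDEN L-WD. Its log2 fold changes were −0.27 (SE 0.08, adjusted p = 0.0292) against nonDEN L-WD and −0.36 (SE 0.08, adjusted p = 0.00722) against DEN L-CD. The former was lost without nonDEN L-WD library 1, 3 or 4 or peritumoral library 4 (adjusted p 0.0516 to 0.164), and without the libraries with pancreatic RNA (−0.22, adjusted p = 0.244). It was also lost when only the groups compared were fitted (adjusted p = 0.0506). Both calls were lost with replicate number as a block (adjusted p = 0.154 and 0.0573).

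Slc10a1 ranged from 281 to 553 CPM (median 335), Cyp27a1 from 214 to 306 CPM (median 251) and Cyp8b1 from 83 to 206 CPM (median 122). All 3 overlapped the liver groups and passed near the threshold. Slc10a1 had a log2 fold change of −0.52 in both comparisons (edgeR quasi-likelihood adjusted p = 0.0364 and 0.0403). That call was lost against nonDEN L-WD without nonDEN L-WD library 1, 3 or 4 or peritumoral library 3, 4, 5 or 8 (log2 fold change −0.51 to −0.46, adjusted p up to 0.128), and against DEN L-CD without any 1 of its 4 libraries or peritumoral library 1, 3, 4, 5 or 8 (−0.56 to −0.47, up to 0.111). Cyp27a1 had log2 fold changes of −0.33 (adjusted p = 0.0474) and −0.34 (adjusted p = 0.0468). These were lost without any 1 of the 4 control libraries, or of peritumoral libraries 1, 2, 3, 4, 5 and 8, in either comparison, with log2 fold changes between −0.38 and −0.26 and adjusted p up to 0.16, and without the libraries with pancreatic RNA (−0.57, adjusted p = 0.059, and −0.43, adjusted p = 0.0567). Cyp8b1 was lower than in nonDEN L-WD by −0.66 (adjusted p = 0.0458), a call lost without nonDEN L-WD library 1, 3 or 4 or peritumoral library 2, 3, 4, 5 or 8 (−0.71 to −0.54, adjusted p up to 0.147). Against DEN L-CD its log2 fold change was −0.39 (adjusted p = 0.249).

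Cyp7a1 in peritumoral tissue ranged from 195 to 675 CPM with a median of 363, spanning the values of both nonDEN L-WD and DEN L-CD. Its log2 fold changes of 0.22 and 0.47 did not pass (adjusted p = 0.692 and 0.35). Cyp7b1 ranged from 57.6 to 285 CPM (median 105), with log2 fold changes of −0.64 and −0.61 that did not pass. Slco1b2 ranged from 1295 to 1978 CPM (median 1556) with a log2 fold change against nonDEN L-WD of −0.38, just outside the threshold (adjusted p = 0.0512). It passed without peritumoral library 2 or 6 (−0.43 in both cases, adjusted p = 0.0334 and 0.0269). It also passed in edgeR with DESeq2 size factors (adjusted p = 0.047) and in the DESeq2 Wald test (adjusted p = 0.0224), and in no other setting. Nr1h4 (117 to 174 CPM) and Nr0b2 (4.48 to 18.5 CPM) did not pass in either comparison.

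Against nonDEN L-CD, with which it shares neither diet nor treatment, peritumoral tissue had 6 members past the test, where 45.3% of all genes tested passed. Cyp7a1 was 16.9-fold higher (log2 fold change 4.08) and Slco1b2 was higher by 0.39. Cyp27a1, Cyp7b1 (−1.40), Baat (−0.58) and Abcb11 (−0.78) were lower. The Cyp27a1 call was lost without nonDEN L-CD library 1 or 2 (log2 fold change −0.34 to −0.29, adjusted p 0.0603 to 0.121), and that of Slco1b2 without nonDEN L-CD library 2 or 3 or peritumoral library 1, 2 or 6 (0.24 to 0.38, adjusted p 0.0511 to 0.269). The Cyp7b1 call was lost without the libraries with pancreatic RNA (−1.23, adjusted p = 0.156). Without nonDEN L-CD libraries 2 and 3, which left 1 control library, the log2 fold changes were −1.65 for Cyp7b1, −0.39 for Cyp27a1 and 0.08 for Slco1b2. Their calls were lost, and fewer of all genes tested passed.

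Whether the effect of DEN depended on the diet was tested as the difference between DEN PT-WD against nonDEN L-WD and DEN L-CD against nonDEN L-CD. Since the WD arm is peritumoral tissue and the CD arm whole liver, tissue and diet cannot be told apart here. The effect was lower on WD for 4 of 10 members, where 8.39% of all genes tested passed. The difference in log2 fold change was −3.39 for Cyp7a1 (SE 0.52, edgeR quasi-likelihood adjusted p = 0.000541), −1.17 for Cyp8b1 (SE 0.35, adjusted p = 0.0431), −1.03 for Slc10a1 (SE 0.26, adjusted p = 0.0184) and −0.997 for Slco1b2 (SE 0.21, adjusted p = 0.00549). The median difference was −0.51 over the members and 0.03 over all genes tested. In the same test 6 of 8 acute phase genes had a higher effect on WD (median difference 2.60) and 3 of 5 pericentral genes a lower one (median −0.89), and the part of these shifts in the members' differences was not tested. The count depended on nonDEN L-CD. Without its library 2 it was 2, with Slc10a1 at −0.89 (adjusted p = 0.0825). Without libraries 2 and 3, which left 1 control library, the calls were lost, and fewer of all genes tested passed. The differences were then −2.73 for Cyp7a1, −0.58 for Cyp8b1, −0.80 for Slc10a1 and −0.71 for Slco1b2. The Cyp8b1 call was also lost when any 1 of 11 libraries was left out, nonDEN L-CD 2 or 3, nonDEN L-WD 1 or 3, DEN L-CD 2, 3 or 4, or peritumoral 2, 3, 4 or 8 (adjusted p 0.0537 to 0.149).

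Tumors differed from peritumoral tissue in more of these genes than any liver group differed from another. In DEN T-WD 9 of the 10 members were lower than in DEN PT-WD, where 37.7% of all genes tested passed and 18.1% were lower. Among these, 6 genes, Cyp7a1, Cyp8b1, Cyp27a1, Cyp7b1, Slc10a1 and Slco1b2, had a log2 fold change of −1 or below, as did 3.09% of genes. The median log2 fold change was −1.37 over the members and 0.01 over all genes tested. The count was 9 with each of the 14 libraries of these groups left out in turn, with DESeq2, without the low-count filter, with the replicate block and without the libraries with pancreatic RNA.

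The enzymes of both routes were lower. Cyp7a1 was at 75.3 to 138 CPM in the 6 tumors (median 129), Cyp8b1 at 35.3 to 52.2 CPM (median 40.5) and Cyp27a1 at 85.7 to 133 CPM (median 104). For these genes every tumor was below every peritumoral library. Cyp7a1 was 3.2-fold lower (log2 fold change −1.68, SE 0.29, edgeR quasi-likelihood adjusted p = 0.000102), Cyp8b1 3.07-fold lower (−1.62, SE 0.20, adjusted p = 3.5e-06) and Cyp27a1 2.42-fold lower (−1.27, SE 0.10, adjusted p = 1.43e-08). Cyp7b1 was at 22.4 to 87 CPM (median 49.6), which overlapped the peritumoral range of 57.6 to 285 CPM, and was 2.86-fold lower (−1.52, SE 0.35, adjusted p = 0.00175).

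Baat had a narrow range in the tumors, 108 to 121 CPM (median 111), with all tumors below all peritumoral libraries. It was 1.92-fold lower (log2 fold change −0.94, SE 0.07, edgeR quasi-likelihood adjusted p = 1.43e-08). Nr1h4 was at 74.3 to 97.2 CPM (median 82.1), again without overlap, and 1.58-fold lower (−0.66, SE 0.09, adjusted p = 1.41e-05). Nr0b2, which FXR induces, was at 6.21 to 11.9 CPM (median 9.44) in tumors and 4.48 to 18.5 CPM (median 13.4) in peritumoral tissue. It was the member that did not pass (log2 fold change −0.36, SE 0.26, adjusted p = 0.301).

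Among the transporters, Slc10a1 was at 97.3 to 162 CPM in the tumors (median 128) and Slco1b2 at 511 to 661 CPM (median 565), both without overlap with peritumoral tissue. Slc10a1 was 2.84-fold lower (log2 fold change −1.51, SE 0.15, edgeR quasi-likelihood adjusted p = 1.94e-07) and Slco1b2 2.76-fold lower (−1.47, SE 0.12, adjusted p = 2.02e-08). Abcb11 was at 211, 222, 223, 234, 369 and 238 CPM in tumor libraries 1 to 6. Library 5 lay just inside the peritumoral range, whose lowest value was 368 CPM, and the other tumors lay below it. Abcb11 was 1.76-fold lower (−0.82, SE 0.10, adjusted p = 3.83e-06), and 1.95-fold lower without library 5 (−0.96, adjusted p = 7.56e-09).

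In total, 7 members had every tumor below every peritumoral library, as did 5.18% of all genes tested. Counted by tumor, libraries 1, 3 and 4 were below the lowest peritumoral value for 9 members, libraries 2 and 6 for 8 and library 5 for 7. The share of all genes below that value in a single tumor was not computed. The 5.18% requires every tumor and is no background for these counts. Tumor library 5 also differed from the other tumors in hepatocyte and tumor genes, with 1994 CPM of Apoa1 against 9424 to 11660 and 7.99 CPM of the oncofetal gene Gpc3 against 135 to 251. Without it, the 9 log2 fold changes that passed ranged from −1.72 (Cyp7a1) to −0.62 (Nr1h4).

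Hepatocyte markers did not fall together in the tumors. Of 7 such genes 2 were higher and 3 lower than in peritumoral tissue, with a median log2 fold change of −0.40. Their summed level was 38520 to 153900 CPM (median 129500) in tumors and 50350 to 86280 CPM (median 71410) in peritumoral tissue. Alb alone made up 91840 to 121200 CPM of it in the tumors other than library 5. Genes of pericentral hepatocytes, the zone around the central vein where Cyp7a1 is normally expressed, were lower in 5 of 5 cases, with a summed level of 1515 to 3556 CPM against 6811 to 10890 CPM. Of 5 periportal genes 3 were lower and 1 higher. Of 7 cholangiocyte markers 3 were higher, their sum having a median of 576 CPM in tumors and 147 in peritumoral tissue, with Spp1 alone at 289 to 642 CPM in tumors and 54.2 to 277 CPM in peritumoral tissue, without overlap, and the defining keratins Krt19 and Krt7 at most at 2.29 and 2.42 CPM in tumors and 5.35 and 2.94 CPM in peritumoral tissue. Both tumor genes and 3 of 3 proliferation genes were higher in tumors, and 2 of 5 macrophage genes were lower. The part of these shifts in the results for the members was not tested. In untreated liver, 4 of the 5 pericentral genes were higher on WD, with sums of 11380 to 13880 CPM on WD and 6278 to 7540 CPM on CD. The part of this shift in the diet result was not tested either.

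The tumors also stood apart from the liver groups. All 10 members were lower than in nonDEN L-WD (49% of all genes tested passed) and 9 were lower than in DEN L-CD (46.9%). Against nonDEN L-CD 9 passed (54%), and Cyp7a1 went the other way: it was 5.29-fold higher in tumors (log2 fold change 2.40, SE 0.41, edgeR quasi-likelihood adjusted p = 3.97e-05), whereas the other 8 were lower, up to 7.54-fold for Cyp7b1 (−2.91).

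The order of the 5 group means varied between the genes. For Cyp7a1 it ran from DEN PT-WD (mean 362 ± 161 CPM, SD, n = 8) through nonDEN L-WD (311 ± 108, n = 4) and DEN L-CD (261 ± 58.6, n = 4) to DEN T-WD (113 ± 28.7, n = 6) and nonDEN L-CD (21.3 ± 11.9, n = 3). The steps between the first 3 did not pass, and each of the later steps did (edgeR quasi-likelihood adjusted p = 0.004 and 3.97e-05). The tumors were lowest for the other 9 genes. For Cyp8b1, Cyp7b1, Nr1h4 and Slc10a1 only the step down to the tumors passed between neighbours. Cyp27a1, Baat and Abcb11 had passing steps down to peritumoral tissue and from there to the tumors. For Slco1b2 the passing steps were from peritumoral tissue to nonDEN L-CD and from there to the tumors. No step between neighbours passed for Nr0b2.

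Ratios of members were taken within each library as the log2 of (TPM + 1). The 1 TPM added pulls the ratio of a low gene towards 0. The relative weight of the classic and the alternative 7α-hydroxylase, Cyp7a1 to Cyp7b1, averaged −4.96 ± 0.60 (SD, n = 3) in nonDEN L-CD. It was −0.28 ± 0.62 in nonDEN L-WD (n = 4), −0.42 ± 0.56 in DEN L-CD (n = 4), 0.65 ± 0.55 in peritumoral tissue (n = 8) and 0.46 ± 0.60 in tumors (n = 6). Cyp7a1 was far below Cyp7b1 in nonDEN L-CD and close to it or above it elsewhere. The differences from nonDEN L-CD were 4.69 for nonDEN L-WD and 4.54 for DEN L-CD, each with p = 0.0286 in an exact two-sided permutation test, the smallest p that 4 against 3 libraries allow, and 0.0536 after adjustment over 15 ratio tests. With 0.1 TPM added in place of 1 TPM they were 4.89 and 4.75. Peritumoral tissue exceeded nonDEN L-WD by 0.92 (exact permutation p = 0.0202, adjusted 0.0536) and DEN L-CD by 1.07 (p = 0.0101, adjusted 0.0536). Without peritumoral library 8 these were 1.05 and 1.20 with an adjusted exact permutation p of 0.0455. With each library left out in turn, the adjusted permutation p was up to 0.15 against nonDEN L-WD and up to 0.134 against DEN L-CD. Tumors and peritumoral tissue differed by −0.19 (exact permutation p = 0.541).

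The ratio of Cyp8b1 to Cyp7a1 was 3.39 ± 0.41 (SD, n = 3) for nonDEN L-CD, 0.33 ± 0.29 for nonDEN L-WD (n = 4), 0.23 ± 0.22 in DEN L-CD (n = 4), −0.48 ± 0.70 in peritumoral tissue (n = 8) and −0.44 ± 0.62 in tumors (n = 6). The differences from nonDEN L-CD were −3.06 and −3.15 (exact permutation p = 0.0286, adjusted 0.0536), and tumors differed from peritumoral tissue by 0.04 (exact permutation p = 0.911). The ratio of uptake to export, Slc10a1 to Abcb11, was 0.21 ± 0.29 for nonDEN L-CD (n = 3), 1.07 ± 0.25 for nonDEN L-WD (n = 4), 1.07 ± 0.11 in DEN L-CD (n = 4), 0.96 ± 0.24 in peritumoral tissue (n = 8) and 0.33 ± 0.51 in tumors (n = 6). It was lower in tumors than in peritumoral tissue by −0.63 (exact two-sided permutation p = 0.001, adjusted 0.015). Without tumor library 5 the difference was −0.44 and the adjusted exact permutation p 0.0536.

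**Figure D4:**
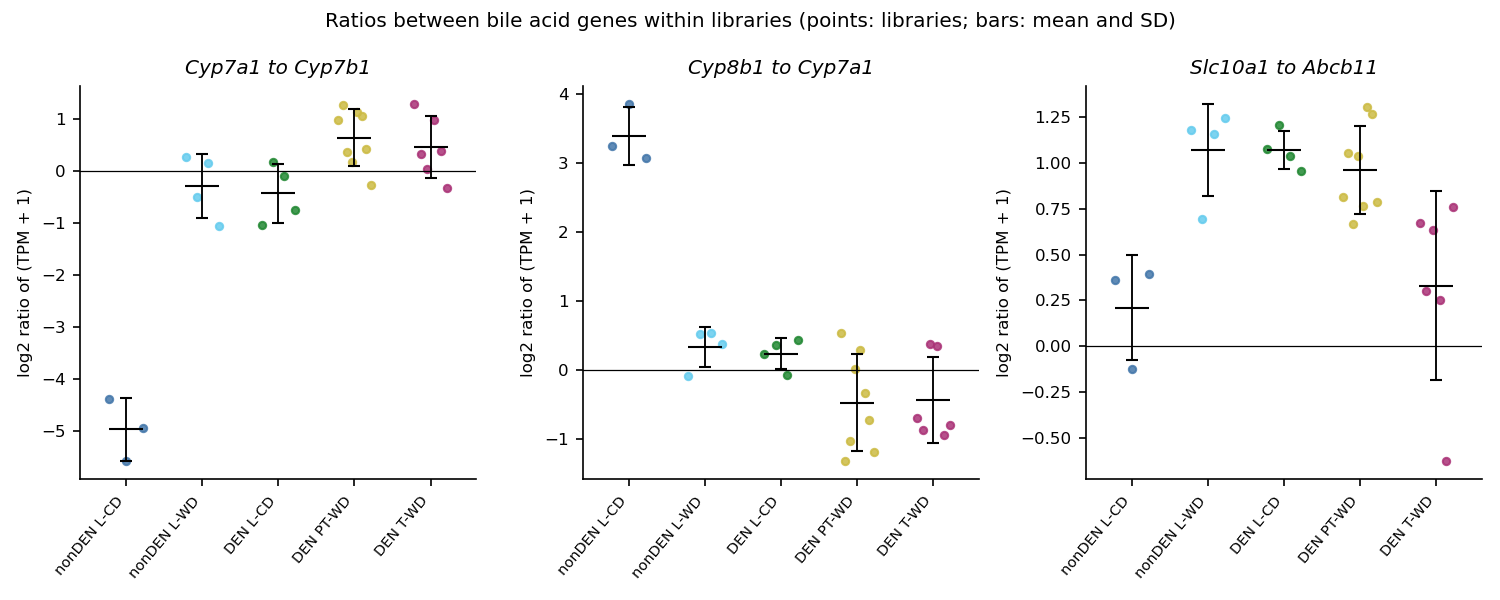
Log2 ratios of 3 pairs of members within each library, from TPM + 1, by group. Points are libraries, and bars are the group mean and SD. The Cyp7a1 to Cyp7b1 ratio is at −4.96 on average in nonDEN L-CD and between −0.42 and 0.65 in the other groups.

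Of 42 other genes of bile acid synthesis, transport and regulation, 39 were tested. WD against CD in untreated mice had 13 that passed, 8 higher and 5 lower, with a median log2 fold change of 0.18, where 23.2% of all genes tested passed. The largest among these were the brain-type cholesterol 24-hydroxylase Cyp46a1 (2.21, SE 0.57, edgeR quasi-likelihood adjusted p = 0.00739), which reached at most 2.72 CPM in these groups, the bile acid carrier Slc10a2 (−2.01, SE 0.23, adjusted p = 4.43e-06), the uptake transporter Slco1a4 (1.57, SE 0.50, adjusted p = 0.0272) and Abcg5 (1.42, SE 0.18, adjusted p = 1.33e-05), which with Abcg8 exports cholesterol into bile. Slc10a2 was at 101 to 235 CPM in nonDEN L-CD and 36.3 to 54.3 CPM in nonDEN L-WD, and Abcg5 at 34.8 to 47.9 and 99.7 to 135 CPM. Neither gene overlapped between the groups. The Cyp46a1 call was lost without nonDEN L-CD library 2 (1.91, adjusted p = 0.0561), and that of Slco1a4 without nonDEN L-CD library 1 or 2 or nonDEN L-WD library 3 (1.35 to 1.59, adjusted p 0.0617 to 0.135). Without nonDEN L-CD libraries 2 and 3, which left 1 control library, fewer genes of the list passed, as did fewer of all genes tested.

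In DEN L-CD against nonDEN L-CD, 9 of the 39 passed, 5 higher and 4 lower (median 0.04), a share near the 21.3% of all genes tested. Cyp46a1 (1.93, edgeR quasi-likelihood adjusted p = 0.0181), Abcg8 (0.83, adjusted p = 0.00471) and Abcg5 (0.72, adjusted p = 0.00557) were higher and Slc10a2 was lower (−1.54, adjusted p = 6.24e-05). Without nonDEN L-CD library 2 the calls of Cyp46a1 (1.64, adjusted p = 0.107) and Abcg5 (0.58, adjusted p = 0.0557) were lost. Without nonDEN L-CD libraries 2 and 3 together, fewer genes of the list and fewer of all genes tested passed. Peritumoral tissue had 6 that passed against nonDEN L-WD, 1 higher and 5 lower, where 12.4% of all genes tested passed. Those lower included Hsd3b7 (−0.49, adjusted p = 0.0106), the dehydrogenase of the sterol nucleus, and the acyl-CoA synthetases Slc27a2 (−0.44, adjusted p = 0.0226) and Slc27a5 (−0.42, adjusted p = 0.0159). The one that was higher, the cholesterol 25-hydroxylase Ch25h (1.26, adjusted p = 0.0289), reached at most 0.671 CPM in these libraries. Calls were lost for Slc27a2 without nonDEN L-WD library 1 or 4 (adjusted p 0.0682 to 0.099), for Slc27a5 without nonDEN L-WD library 3 or 4 (0.0505 to 0.0621) and for Ch25h without nonDEN L-WD library 2, 3 or 4 or peritumoral library 8 (0.0509 to 0.114). Against DEN L-CD also 6 passed, 3 in each direction, where 10.6% of genes passed, with Ch25h (1.42, adjusted p = 0.0211) and Abcg5 (0.98, adjusted p = 0.000497) higher and the uptake transporter Slco1a1 (−1.28, adjusted p = 0.0413) and Slc10a2 (−0.79, adjusted p = 0.00873) lower. The Slco1a1 call was lost without any 1 of the 4 DEN L-CD libraries or peritumoral library 1, 2, 4 or 5 (−1.33 to −1.14, adjusted p 0.0532 to 0.106), and that of Ch25h without DEN L-CD library 1, 3 or 4 (1.21 to 1.49, adjusted p 0.0534 to 0.0849). The Slc10a2 call was lost in 1 of 18 settings tried (adjusted p = 0.0603).

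In the tumors 25 of the 39 passed against peritumoral tissue, 21 lower and 4 higher, and the median log2 fold change was −0.38, where 37.7% of all genes tested passed and 18.1% were lower. Without the libraries with pancreatic RNA 13 passed, 12 lower and 1 higher, where 2480 of 16339 genes tested passed. By role, 9 of 15 synthesis genes, 7 of 13 transporters and 5 of 11 regulators were lower, whereas 1, 3 and 0 were higher. Cyp46a1 (−1.70, SE 0.37, edgeR quasi-likelihood adjusted p = 0.000974) and Slco1a1 (−1.49, SE 0.38, adjusted p = 0.00342) were lower. Slco1a1 was at 36.5 to 186 CPM in tumors and 89.8 to 475 CPM in peritumoral tissue, which overlap. The efflux pump Abcc4 (2.23, SE 0.62, adjusted p = 0.00688) and the basolateral transporter subunit Slc51b (1.91, SE 0.49, adjusted p = 0.00393) were higher on average, but Abcc4 ranged from 11.9 to 307 CPM with a median of 16.5, and Slc51b reached at most 4.34 CPM. Without tumor library 5 Abcc4 had a log2 fold change of 0.23 (adjusted p = 0.621) and Slc51b of 0.87 (adjusted p = 0.0587).

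**Figure D5:**
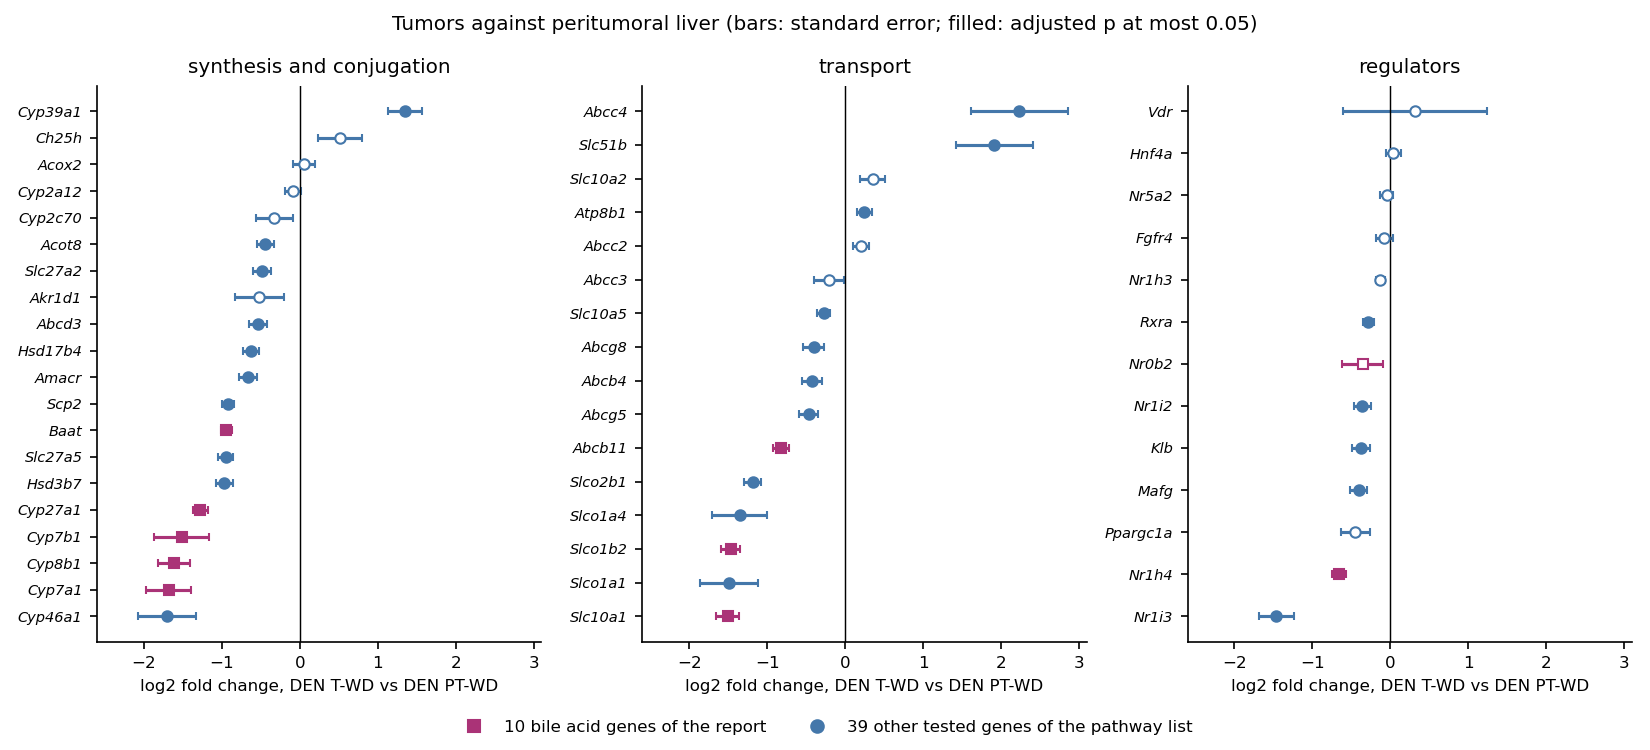
Log2 fold change with its standard error in tumor against peritumoral tissue for the 10 members and the 39 other bile acid genes tested, by role. Squares are the members, circles the other genes, and filled symbols passed the test. Most points lie below 0, at a median of −1.37 for the members and −0.38 for the other genes.

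Over the 25 libraries, the genes whose pattern was most like that of a member were found by the root mean square difference of log2 CPM after centring each gene. For Cyp7a1 these were Hsd3b2 (0.70) and Cyp2g1 (0.74), which is no close likeness. For Cyp27a1 they were Slco2b1 (0.15) and Cyp2j5 (0.17), for Baat Acadsb and Fpgs (0.17 each), and for Abcb11 Tmem243 (0.17) and Ttc7b (0.18). Slco1b2 was most like Akr1c6 (0.21) and BC024386 (0.22), and Slc10a1 like Npr2 (0.22) and Rgn (0.25). Cyp8b1 was nearest to Cpsf4l and Lhpp (0.33 each), Nr0b2 to Mtnr1a (0.37), and Cyp7b1 to the complement genes C6 (0.40) and C8b (0.41). Nr1h4 varied too little over the libraries for this measure, with an SD under 0.5.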

How the data were processed

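Total RNA of frozen, pulverized tissue was made into poly(A) libraries and sequenced as single-end reads. According to the submitters' notes and the paper, reads were checked with FastQC, aligned to GRCm38 with STAR and quantified with RSEM. Which STAR and RSEM versions, annotation release and strand setting were used is not given in the sources used here. The deposited expected counts per gene are not normalized and need not be whole. The deposited TPM values are length-corrected shares of a library. The deposited FPKM values are reads scaled to gene length and depth, used here only as an alternative for the ratios. Genes were named through the annotation (48349 of 48795).

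Expected counts were rounded, filtered with filterByExpr (minimum count 10), TMM-normalized and analysed with the quasi-likelihood test of edgeR 4.0.16 (R 4.3.3) in 1 fit over 5 groups, with Benjamini-Hochberg adjustment. DESeq2 1.42.0 was the alternative tool. Ratios used exact permutation tests in SciPy 1.17.1. The code was tested on simulated data. The members, gene lists and tests were chosen with earlier results of these data known. All 10 members were named. Of the other pathway genes, up to 4 with the largest absolute log2 fold change among those passing were named in each comparison. Alternatives were DESeq2 size factors, no filter, fitting only the groups compared, a replicate block, each library left out, a minimum fold, a pseudocount of 0.1 TPM and FPKM in place of TPM. Leaving out nonDEN L-CD libraries 2 and 3, or the 10 libraries with pancreatic RNA, was added after seeing the data. TPM shares move the median gene by up to 0.33 on the log2 scale between groups (tumors against nonDEN L-CD), so differences between libraries were taken from TMM-normalized counts.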

Additional observations from a re-analysis of the deposited data

Results flagged for a closer look

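The level of Abcb11 in tumor library 5, 368.7 CPM, lay apart from the other 5 tumors, which were at 211 to 238 CPM. Its gap to the nearest tumor was 0.824 of the range of the group, above the critical value of Dixon's test. Of 40 groups of libraries tested in this way over the 10 members this was 1 case, and chance gives about 1 in 20. The same library had less albumin and Gpc3 than the other tumors, and 811 CPM of the periportal gene Cyp2f2 against 124 to 214.

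The effect of DEN differed between the diets for 4 members, as a tested difference of log2 fold changes: −3.39 for Cyp7a1, −1.17 for Cyp8b1, −1.03 for Slc10a1 and −0.997 for Slco1b2. All 4 rest on the 3 nonDEN L-CD libraries and compare peritumoral tissue on WD with whole liver on CD.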

How the results depend on the processing

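None of the 92 single-gene and ratio results that passed changed direction in any setting tried. Of the 93 that did not pass, 31 changed sign in at least 1 setting, among them Cyp8b1 in DEN L-CD against nonDEN L-CD (−0.10 without nonDEN L-CD libraries 2 and 3), Nr1h4 in nonDEN L-WD against nonDEN L-CD (−0.11 without them), Nr0b2 in DEN L-CD against nonDEN L-CD (−0.36 without DEN L-CD library 1) and Cyp7a1 in peritumoral tissue against nonDEN L-WD (−0.04 with the replicate block). The counts that moved by over 1.5 times were as follows. For members higher or lower in nonDEN L-WD against nonDEN L-CD, 4 became 2 without the low-count filter and 1 with a log2 fold change of at least 1 required. With 1 library left out the count was 2 to 4 (2 without nonDEN L-CD library 2 or 3 or nonDEN L-WD library 1). It also fell without nonDEN L-CD libraries 2 and 3, and without the libraries with pancreatic RNA. Each of these settings leaves 1 control library. For DEN L-CD against nonDEN L-CD, 2 became 5 when only the groups compared were fitted and 1 with the fold required. With 1 library left out the count was 1 to 4 (1 without nonDEN L-CD library 2, 4 without library 1). It also fell without nonDEN L-CD libraries 2 and 3 together. For peritumoral tissue against nonDEN L-WD, 5 became 3 without the filter, 1 with only the groups compared, 2 without pancreatic RNA, 0 with the fold required, also at an unadjusted p under 0.05 in edgeR and in DESeq2, and 1 to 6 with 1 library left out (1 without nonDEN L-WD library 1, 3 or 4 or peritumoral library 4, 2 without peritumoral library 3, 5 or 8). Against DEN L-CD, 4 became 2 without the filter, 2 without pancreatic RNA, 0 with the fold required, likewise 0 unadjusted and in DESeq2, and 1 to 4 with 1 library left out (1 without DEN L-CD library 2, 3 or 4, 2 without DEN L-CD library 1 or peritumoral library 1, 3, 4, 5 or 8). The interaction count of 4 became 2 to 4 with 1 library left out, and its calls were lost without nonDEN L-CD libraries 2 and 3. The tumor count was 9 throughout, and 6 with the fold required.

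For the other pathway genes, 13 in nonDEN L-WD against nonDEN L-CD became 8 to 13 with 1 library left out (8 without nonDEN L-CD library 2). The count fell further in the settings that leave 1 control library. In DEN L-CD against nonDEN L-CD 9 became 4 to 11 with 1 library left out (4 without nonDEN L-CD library 2), and fewer without nonDEN L-CD libraries 2 and 3. In peritumoral tissue 6 became 2 to 10 against nonDEN L-WD (2 without nonDEN L-WD library 4, 10 without peritumoral library 6) and 3 to 7 against DEN L-CD (3 without DEN L-CD library 3 or 4). In tumors 25 became 13 without pancreatic RNA and 23 to 26 with 1 library left out. For these changes the cause was not tested, beyond the fewer samples or genes of each setting. The number of all genes passing also fell without nonDEN L-CD libraries 2 and 3 and without the libraries with pancreatic RNA. In the latter setting 2480 of 16339 genes passed in tumors against peritumoral tissue, in place of 5884 of 15625. For peritumoral tissue 389 passed against nonDEN L-WD and 1495 against DEN L-CD, in place of 1933 and 1650.

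With 1 library left out, the Cyp7a1 to Cyp7b1 ratio differed by 0.67 to 1.11 between peritumoral tissue and nonDEN L-WD and by 0.86 to 1.27 against DEN L-CD, and the Slc10a1 to Abcb11 ratio by −0.72 to −0.44 between tumors and peritumoral tissue. Replicate numbers are shared between groups, but in no comparison did every same-numbered pair correlate above 0.1, so the numbers were not taken as pairing. With the replicate block, 3 members passed in peritumoral tissue against nonDEN L-WD in place of 5, 3 in DEN L-CD against nonDEN L-CD in place of 2, 3 against DEN L-CD in place of 4, and 9 in tumors. The block lost Baat in nonDEN L-WD against nonDEN L-CD (adjusted p = 0.056) and in peritumoral tissue against both nonDEN L-WD (0.154) and DEN L-CD (0.0573), Cyp8b1 against nonDEN L-WD (0.0538) and Slco1b2 in peritumoral tissue against nonDEN L-CD (0.0515), and it gained Slc10a1 against nonDEN L-CD in nonDEN L-WD (0.0214) and DEN L-CD (0.0215). The groups of 3 or 4 libraries limit what small differences can be called.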

Other observations

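The rhythmic genes of the liver clock, which share with Cyp7a1 a daily course in mice, had a summed level of 325, 190 and 231 CPM in the 3 nonDEN L-CD libraries, where Cyp7a1 was at 34.4, 11.3 and 18.2 CPM. The sum was 304 to 346 CPM in nonDEN L-WD and 314 to 341 CPM in DEN L-CD. Of 9 such genes, 1 was higher and 1 lower than in nonDEN L-CD in each of these groups. Dbp, 1 of them, was at 64.1, 17.6 and 31.9 CPM in nonDEN L-CD. It was at 58 to 73.3 CPM in nonDEN L-WD and 62 to 70.5 CPM in DEN L-CD. In peritumoral tissue it was 213 to 358 CPM, and library 8, which had the lowest sum of that group, had 372 CPM of Cyp7a1. In tumors it was 174 to 359 CPM, and library 5, which had the lowest sum of all 25 libraries, had 130 CPM of Cyp7a1. Times of collection are not given in the sources used here. A sum over rhythmic genes does not show their phase, so the part of collection time in the Cyp7a1 levels was not tested. The ileal bile acid binding protein gene Fabp6 was at 0 counts in every library, whereas Slc10a2, which the ileum also expresses, was above 28 CPM in all of them. Cyp39a1, the oxysterol 7α-hydroxylase of 24-hydroxycholesterol, was higher in tumors than in peritumoral tissue (log2 fold change 1.35, edgeR quasi-likelihood adjusted p = 5.88e-05) whereas Cyp7b1, which acts on other oxysterols, was lower. Cyp39a1 is outside the rule for named genes and was chosen after its values were seen.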
